A study of Mus musculus with 20 samples.

Results

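The insulin-like growth factor (IGF) family was followed through 20 RNA sequencing libraries of sorted stromal cells from mouse gonadal white fat. The family comprised 10 of the 54304 genes listed, chosen by symbol: the ligands Igf1 and Igf2, the receptors Igf1r and Igf2r, and the binding proteins Igfbp2, Igfbp3, Igfbp4, Igfbp5, Igfbp6 and Igfbp7. It was picked because Igfbp3 was seen to be high in 1 group, the fibro-inflammatory progenitors labelled transgenic, so the genotype difference within those cells is described for every member without a test.

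Fibro-inflammatory progenitors (FIPs, sorted as CD45- CD31- PDGFRb+ LY6C+) and adipogenic precursor cells (APCs, CD45- CD31- PDGFRb+ LY6C- CD9-) came from male mice of a Mural-Zfp423 transgenic line or from controls. The labels gave the age as 8 weeks, the housing temperature as 30 °C and the diet, fed for 1 month to both genotypes, as 60% of calories from fat. They named neither the promoter nor the alleles of the line, and no treatment separated the groups besides genotype and cell type. Each of the 4 groups had 5 libraries, and each library pooled RNA of 2 mice. Only 10 mice were used per genotype. If the 5 libraries of a cell type shared no mice, every mouse gave cells to libraries of both types. The labels do not say which libraries share mice, and the main tests treat them as independent.

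IGF1 and IGF2 are secreted hormones of growth and differentiation that signal through the receptor tyrosine kinase IGF1R, while IGF2R, the cation-independent mannose 6-phosphate receptor, takes IGF2 up for degradation in lysosomes. The binding proteins hold IGFs outside the cell, where they can withhold them from the receptor or deliver them to it, and proteases such as pappalysins cut them and free the ligand. In fat, IGF1 promotes the differentiation of preadipocytes, and stromal cells of the tissue make both the ligand and its binding proteins.

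Values are log2 CPM, read counts scaled to library size on a log scale, with a CPM of 1 or less listed as 0, and differences are in log2 units, so 1 unit is a factor of 2. Depth was about 6.6 to 8.5 megareads per library. Genes were tested with limma across 17435 genes in a fit of all 20 libraries with 1 mean per group, and a gene passed when its Benjamini-Hochberg adjusted p was under 0.05. The gate genes Ly6c1, Cd9 and Pdgfrb followed the sort. Ly6c1 lay between 7.07 and 7.41 in the FIP libraries and between 4.88 and 5.83 in the APC libraries. Cd9, gated in APCs only, lay at 6.51 or more in FIPs and at 5.15 or less in APCs. Pdgfrb was at 8.79 or more everywhere. Transcripts of the excluded markers were present in all libraries, Pecam1 (CD31) at 5.74 to 6.79 and Ptprc (CD45) at 3.0 to 5.12. Zfp423 was not raised in the libraries labelled transgenic (FIPs 5.53 ± 0.04 against 5.47 ± 0.12 in controls, APCs 4.70 ± 0.27 against 4.97 ± 0.17, SD, n = 5), so the genotype is given below as labelled.

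Over all tested genes, replicate 1 of each APC group deviated most from its group mean. Its mean squared deviation was 0.09 in controls (0.037 to 0.074 in its companions) and 0.088 under the transgenic label (0.037 to 0.058). Among members, the check for outlying libraries given at the end flagged this replicate only under the transgenic label, for Igfbp5. The 6 erythroid genes summed to 1043 CPM in replicate 1 of the APCs labelled transgenic, while its 4 companions lay between 454 and 602. In replicate 1 of the control APCs the sum was 805, below its 4 companions at 937 to 1544. Transcripts of other cells were present in all groups. The erythroid sum of the FIP libraries ran from 451 to 522 CPM (controls) and from 308 to 559 (transgenic label). For 13 macrophage genes the sum ran from 314 to 516 (APCs, controls), from 201 to 330 (APCs, transgenic label), from 246 to 451 (FIPs, controls) and from 166 to 305 (FIPs, transgenic label). Each of these genes was above 0 in at least 1 library of every group, except the erythroid gene Slc4a1 in FIPs labelled transgenic. Several results are given also without both APC replicates 1 or with the erythroid level as a covariate. In controls that level separated the populations, with FIPs at 451 to 522 CPM and APCs at 805 to 1544. Between APC genotypes only replicate 1 of the transgenic label reached the control range. In these comparisons, a difference that shrinks with the covariate cannot be told apart from removal of the group difference itself.

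**Figure D1:**
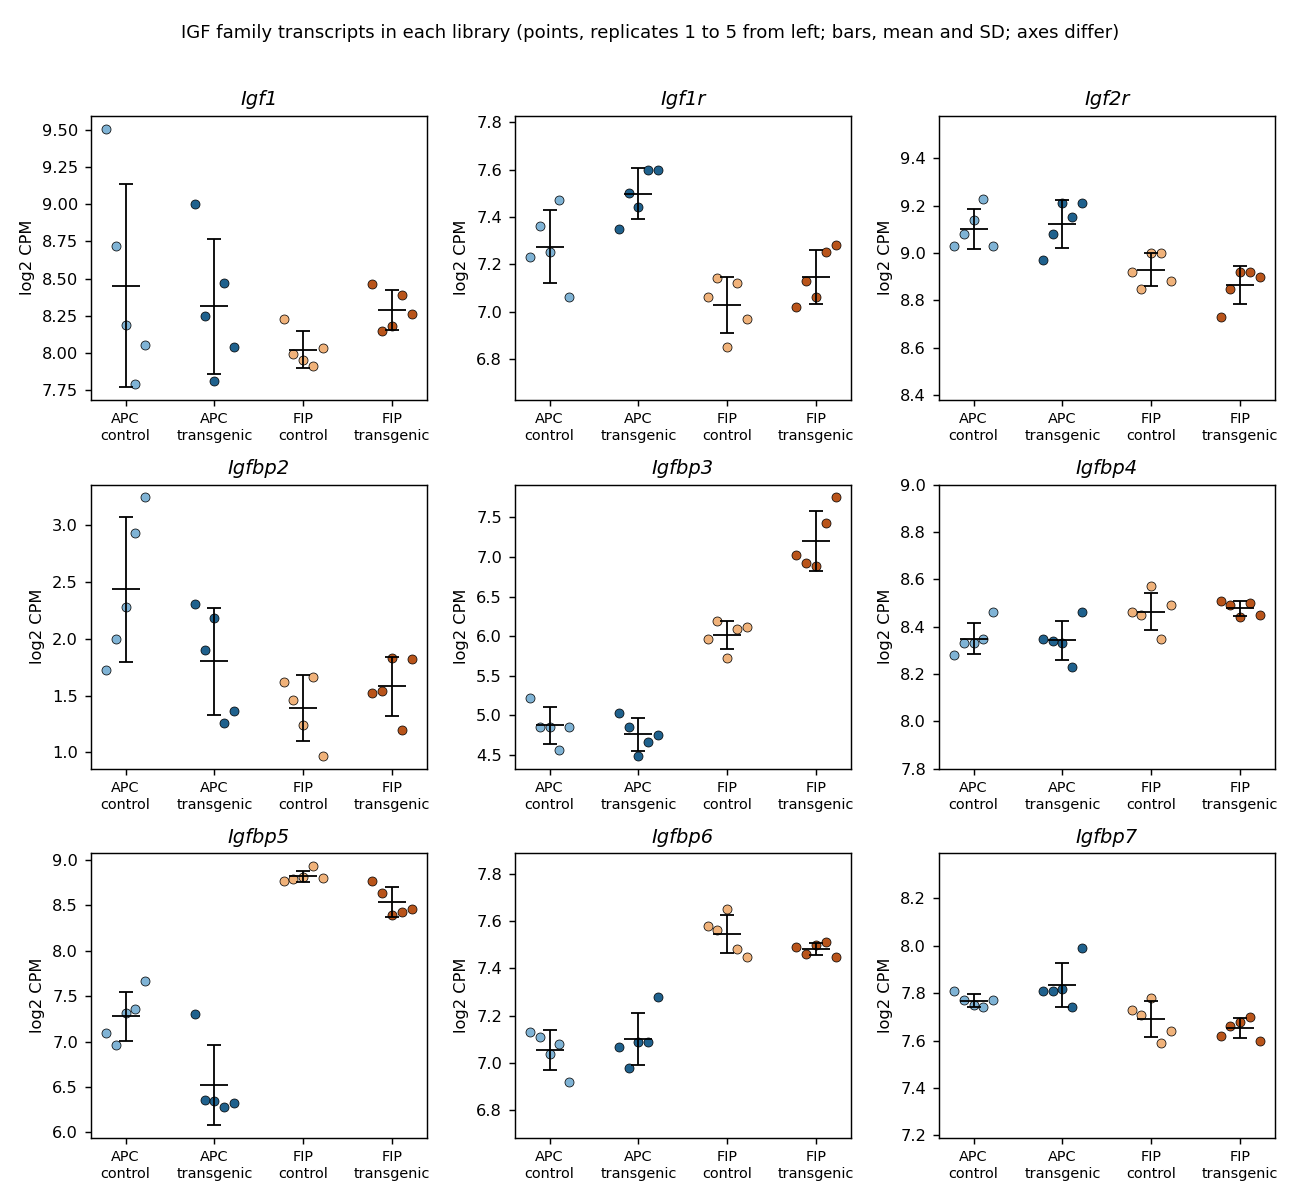
Level of each detected IGF family transcript in every library, in log2 CPM (vertical axes differ between panels). Points are libraries, replicates 1 to 5 from left to right in each group, and bars are the mean and SD of 5. Igfbp3 separates the FIP groups (5.73 to 6.19 against 6.88 to 7.75), and Igfbp5 lies at 8.39 or more in all FIP libraries and at 7.67 or less in all APC libraries.

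Igf1 was the only ligand listed above 0. Its level in control APCs was 9.51, 8.72, 8.19, 7.79 and 8.05 log2 CPM in replicates 1 to 5, and in APCs labelled transgenic 9.0, 8.25, 7.81, 8.47 and 8.04. In control FIPs the levels were 8.23, 7.99, 7.95, 7.91 and 8.03, and in FIPs labelled transgenic 8.46, 8.15, 8.18, 8.39 and 8.26. Replicate 1 held the highest value in every APC and FIP group. The APC libraries spread far more (SD 0.68 and 0.46) than FIP libraries (SD 0.12 and 0.13).

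Igf1 did not pass the test between the populations. In controls FIPs minus APCs gave -0.43 (95% interval -0.92 to 0.06, limma adjusted p = 0.143), and without control APC replicate 1 the difference was -0.17. Without control APC replicate 4, the lowest library, it was -0.60 and passed (adjusted p = 0.0423). Among the libraries labelled transgenic it was -0.03 (-0.52 to 0.47, adjusted p = 0.943), and it changed sign to 0.15 without replicate 1 of those APCs. Between genotypes in APCs it was -0.14 (-0.63 to 0.35, adjusted p = 0.776), and 0.13 without control APC replicate 1. In FIPs the mean was 0.27 higher under the transgenic label, with overlapping groups.

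Igf2 was listed at 0 in all 20 libraries. The protein-coding genes of the mitochondrial chromosome, which every cell uses, were also listed at 0 throughout. For those genes a 0 does not show a low level, and whether the same holds for genes of other chromosomes was not tested. For a gene whose reads were counted, a 0 stands for a level at or below the listing limit given above. In the annotation, 64.5% of the exon bases of Igf2 are shared with the overlapping gene Gm49394 or the antisense gene Igf2os, both also listed at 0 throughout. The other exon bases of Igf2 are not shared in that annotation. A low level of Igf2 with reads lost to such overlap in counting cannot be told apart from absence of the transcript. Igfbp1, the liver-type binding protein outside the chosen family, was likewise listed at 0 in every library.

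The genes of both receptors were lower in FIPs than in APCs by small amounts. Igf1r encodes the signalling receptor. It lay between 7.06 and 7.47 log2 CPM in control APCs (median 7.25) and between 6.85 and 7.14 in control FIPs (median 7.06), with overlapping groups, and the fitted difference of FIPs minus APCs was -0.25 (SE 0.073, adjusted p = 0.00864). Under the transgenic label the APC libraries lay between 7.35 and 7.60 and the FIP libraries between 7.02 and 7.28, without overlap, and the difference was -0.35 (adjusted p = 0.000534).

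Igf2r, the clearance receptor, lay between 9.03 and 9.23 in control APCs and between 8.85 and 9.0 in control FIPs. Those groups did not overlap, nor did those labelled transgenic, at 8.97 to 9.21 and 8.73 to 8.92. The differences were -0.17 (SE 0.051, adjusted p = 0.00925) and -0.26 (adjusted p = 0.000323). The control differences of both receptors lay near the movement of scaling: with libraries centred on their medians they were -0.18 for Igf1r (adjusted p = 0.106) and -0.11 for Igf2r (adjusted p = 0.261), while those under the transgenic label still passed. With the erythroid level as a covariate the control difference of Igf1r was -0.43 and still passed.

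Between genotypes in APCs, Igf1r was 7.23, 7.36, 7.25, 7.47 and 7.06 in controls and 7.35, 7.5, 7.44, 7.60 and 7.60 under the transgenic label. The groups overlapped, and the difference of 0.22 (0.07 to 0.38) did not pass (adjusted p = 0.0601, exact permutation p = 0.0397, two-sided). It passed without control APC replicate 2 or 4 or replicate 1 of the transgenic label (lowest adjusted p = 0.0226), without both APC replicates 1 (0.25, adjusted p = 0.0323) and with centred libraries (0.32, adjusted p = 0.032). Igf2r differed by 0.02 (-0.09 to 0.13, adjusted p = 0.847).

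Among the binding proteins, those with the largest differences were Igfbp3 and Igfbp5. Igfbp3 is the main carrier of IGFs in blood, where it joins the acid-labile subunit in a ternary complex, and it is also secreted locally. Igfbp5 binds extracellular matrix and is made by many connective tissue cells. Igfbp3 lies on chromosome 11 at 7206086 to 7213923 (GRCm38, minus strand), 3.5 kb from Igfbp1, and Igfbp5 on chromosome 1 at 72857932 to 72874884 (minus strand), 5.5 kb from Igfbp2. The upstream sequences of these genes are shown because the fitted differences of these genes between the sorted populations were the largest among members. They run 5′ to 3′ from base -250 to base -21 relative to the RefSeq start (GRCm38.p6, minus strand), Igfbp3 at chr11:7213944-7214173 and Igfbp5 at chr1:72874886-72875115.
Igfbp3: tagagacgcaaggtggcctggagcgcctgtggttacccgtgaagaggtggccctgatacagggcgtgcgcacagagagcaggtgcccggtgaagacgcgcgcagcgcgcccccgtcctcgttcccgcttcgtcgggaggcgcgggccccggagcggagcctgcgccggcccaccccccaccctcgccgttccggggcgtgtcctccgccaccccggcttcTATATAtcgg
Igfbp5: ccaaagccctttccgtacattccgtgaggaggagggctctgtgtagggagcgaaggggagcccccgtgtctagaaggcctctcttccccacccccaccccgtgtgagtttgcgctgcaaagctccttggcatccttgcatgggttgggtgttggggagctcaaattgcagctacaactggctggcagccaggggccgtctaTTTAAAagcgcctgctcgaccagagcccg
Capitals mark TATATA in Igfbp3, a match to TATANA at -30 to -25, and TTTAAA in Igfbp5 at -49 to -44. On both strands, TATANA occurred in 24.7% of 32851 RefSeq promoters of 300 bases, and TTTAAA, which reads the same on both strands, in 13.2%. The Igfbp3 promoter held 71.7% G and C and 37 CpG dinucleotides in 300 bases, and that of Igfbp5 held 56.3% and 10, against a median of 52.7% G and C over all promoters. A match to these letters describes the sequence only. The positions in Igfbp5 depend on the annotation, since its gene end given above, 72874884, lies upstream of the RefSeq start.

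Igfbp3 had overlapping levels in the APC groups and was higher in both FIP groups, most of all under the transgenic label. In control APCs it was 5.22, 4.86, 4.86, 4.57 and 4.86 log2 CPM, and in APCs labelled transgenic 5.03, 4.86, 4.49, 4.67 and 4.75. In control FIPs it was 5.96, 6.19, 5.73, 6.09 and 6.11, and in FIPs labelled transgenic 7.03, 6.92, 6.88, 7.43 and 7.75. Every FIP library exceeded every APC library, and every FIP library labelled transgenic exceeded every control FIP library.

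The contrast of the FIP groups chose the family, so its size is a description: Igfbp3 was 1.19 log2 units higher under the transgenic label, 2.28-fold, where 0.373% of all genes passed the test, 0.241% as higher, and 2.89% had groups that did not overlap. Without FIP replicate 5 of the transgenic label, the highest library, the difference was 1.05. None of the 13 endothelial and 13 mural genes passed in this contrast, but their median differences were 0.33 and 0.11, beside 0.01 over all genes. The endothelial genes summed to 655 to 859 CPM in control FIPs and 765 to 1001 under the transgenic label, and the mural genes to 480 to 518 and 498 to 633. The macrophage genes had a median difference of -0.46, with none passing. The part of these cells in the level of Igfbp3 was not tested. FIPs minus APCs gave 1.14 in controls (0.79 with the erythroid level as a covariate) and 2.44 under the transgenic label, also without a test, since these comparisons use the same FIP libraries.

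The comparison of APC genotypes did not enter that choice, and there Igfbp3 differed by -0.11 (95% interval -0.42 to 0.19, SE 0.147, adjusted p = 0.687, exact permutation p = 0.397). The difference between the genotype differences of FIPs and APCs was 1.30, given without a test because 1 of its arms chose the family. In bulk libraries, fewer cells of a type and less RNA per cell cannot be told apart, here and in all results that follow.

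Igfbp5 was higher in FIPs than in APCs in both genotypes. Its level was 7.10, 6.96, 7.31, 7.36 and 7.67 in control APCs and 8.77, 8.79, 8.81, 8.93 and 8.80 in control FIPs. Under the transgenic label it was 7.30, 6.36, 6.34, 6.28 and 6.32 in APCs and 8.77, 8.64, 8.39, 8.43 and 8.46 in FIPs. FIP and APC libraries did not overlap in either genotype. Igfbp5 was higher in FIPs by 1.54 in controls (SE 0.153, 2.91-fold, adjusted p = 6.36e-08) and by 2.02 under the transgenic label (4.05-fold, adjusted p = 9.29e-10), each with an exact permutation p of 0.00794, the smallest that 5 against 5 can give. With the erythroid level as a covariate these differences were 2.25 and 2.32 and passed.

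Of the 8 members tested in this comparison (Igf2 was listed at 0 and Igfbp3 is described only), 3 were higher and 3 lower in control FIPs, against 19.6% of all genes higher and 27.9% lower, 47.5% in all. Under the transgenic label 3 were again higher and 3 lower, against 22.7% and 19%, 41.7% in all. Groups did not overlap for 31.4% of all genes in controls and 29% under the transgenic label. FIPs and APCs differed at a large share of all genes, and 6 passing members of 8 stand beside that background. The median member difference was -0.12 in controls and -0.10 under the transgenic label, beside -0.06 and -0.01 over all genes. The sorted groups differed in genes of other cells too. In control FIPs 13 of 13 mural, 12 of 13 endothelial, 8 of 9 mesothelial and 6 of 6 erythroid genes were lower. Under the transgenic label 9, 1, 2 and 3 of them were. Of 8 adipocyte genes, 8 were lower in control FIPs and 2 under the transgenic label. That list shares Plin1 with 9 committed preadipocyte genes, of which 8 were lower in FIPs in each genotype. All 8 interstitial progenitor genes were higher in FIPs in each genotype. Whether the adipocyte genes come from the sorted cells or from others was not tested. The part of other cells in the member differences was not tested beyond the erythroid covariate.

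**Figure D2:**
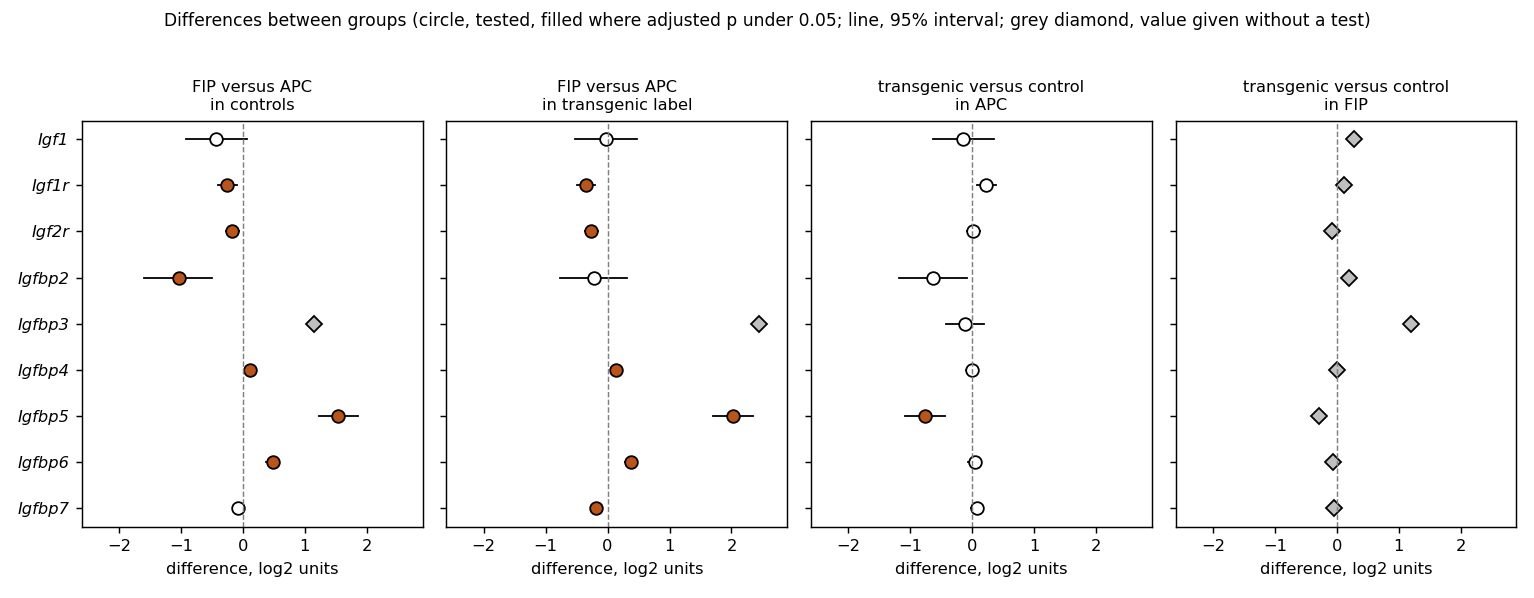
Difference of each member between groups, in log2 units (horizontal axis), for FIPs minus APCs in controls and under the transgenic label, and for transgenic minus control in APCs and in FIPs. Circles are tested differences with 95% intervals, filled where the adjusted p was under 0.05, and grey diamonds are differences given without a test. Igfbp5 and Igfbp6 are to the right of 0 in both population comparisons, and Igfbp5 is to the left of 0 between APC genotypes (-0.76).

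Igfbp5 was also the only one of the 9 detected members to pass between genotypes in APCs, where 5.91% of all genes passed as lower and 2.1% as higher, 8.01% in all, and 2.92% had groups without overlap. Its level was lower under the transgenic label, by a difference of -0.76 (95% interval -1.08 to -0.44, 1.69-fold lower, adjusted p = 0.013, exact permutation p = 0.0238). The 4 libraries labelled transgenic other than replicate 1 lay between 6.28 and 6.36, below every control, while replicate 1 at 7.30 lay within the control range. Without both APC replicates 1 the difference was -1.0 (adjusted p = 1.84e-05), and it passed in 20 of 20 fits that left out 1 library, with differences from -0.95 to -0.66.

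The Igfbp5 difference in APCs moved with other transcripts. All 6 erythroid genes were lower under the transgenic label (median -0.94), as were 7 of 13 macrophage genes (median -0.71) and 5 of 8 adipocyte genes (median -0.56). Genes that mark the FIP population were lower as well: Ly6c1 at -0.53 and Cd9 at -0.65 (adjusted p = 0.00161 and 0.00163), each without overlap between the APC groups, and 4 of 8 interstitial progenitor genes. With the erythroid level as a covariate the Igfbp5 difference was -0.23 (adjusted p = 0.773), and when only the APC libraries were fitted it remained -0.76 with an adjusted p of 0.137. In FIPs the difference of Igfbp5 was -0.28 under the transgenic label (-0.16 with the erythroid covariate), a description, with overlapping groups.

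**Figure D3:**
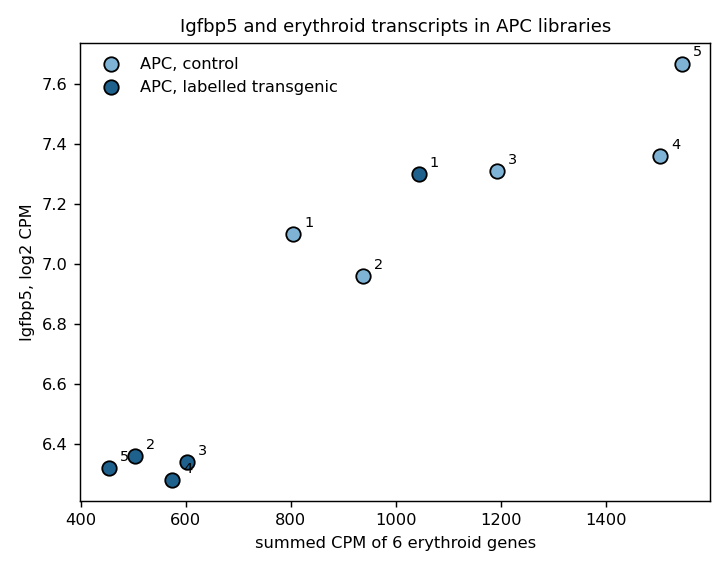
Igfbp5 in log2 CPM (vertical) beside the summed CPM of 6 erythroid genes (horizontal) in the 10 APC libraries, numbered by replicate. The 4 libraries labelled transgenic other than replicate 1 lie at 454 to 602 CPM and 6.28 to 6.36, and replicate 1 of that group (1043 CPM, 7.30) lies among the controls.

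Igfbp6, a binding protein that prefers IGF2, was higher in FIPs with little spread. Its libraries lay between 6.92 and 7.13 in control APCs and between 7.45 and 7.65 in control FIPs, and between 6.98 and 7.28 and between 7.45 and 7.51 under the transgenic label. The groups did not overlap in either genotype. The differences were 0.49 (SE 0.05, adjusted p = 8.35e-08) and 0.38 (adjusted p = 2.4e-06), and between genotypes in APCs 0.05 (-0.06 to 0.15, adjusted p = 0.612).

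Igfbp4, whose product is the best-known substrate of pappalysin, had the narrowest range of the detected members. All 20 libraries lay between 8.23 and 8.57, and FIP and APC groups overlapped. It was higher in FIPs by 0.11 in controls (adjusted p = 0.0335) and 0.14 under the transgenic label (adjusted p = 0.014). The control call was lost in 7 of 20 fits that left out 1 library, namely each of control APC replicates 1 to 4 and control FIP replicates 1, 3 and 5, with differences from 0.09 to 0.14. The call under the transgenic label was lost without replicate 4 of those APCs (highest adjusted p = 0.0501).

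Igfbp7, a secreted relative that binds IGFs weakly and insulin, lay between 7.59 and 7.99 throughout. In controls FIPs minus APCs gave -0.08 (-0.16 to 0.01, adjusted p = 0.128). Under the transgenic label the APC libraries (7.74 to 7.99) all exceeded the FIP libraries (7.60 to 7.70), and the difference was -0.18 (adjusted p = 0.00118). An antisense gene, Polr2b, covers 7.0% of the exon bases of Igfbp7, and the strand setting of the counting is not known here.

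Igfbp2, a binding protein of liver, brain and epithelia among other tissues, was near the limit of detection, at an estimated 16 to 72 reads per library. In control APCs it was 1.72, 2.00, 2.28, 2.93 and 3.24, in APCs labelled transgenic 2.30, 1.90, 2.18, 1.26 and 1.36, in control FIPs 1.62, 1.46, 1.24, 1.66 and 0.97, and in FIPs labelled transgenic 1.52, 1.54, 1.83, 1.2 and 1.82. The highest libraries were control APC replicates 4 and 5. Control FIPs lay below control APCs without overlap (-1.04, SE 0.26, adjusted p = 0.00249), and the difference was -0.02 with the erythroid level as a covariate (adjusted p = 0.975). Under the transgenic label the difference was -0.22 (-0.76 to 0.32, adjusted p = 0.533), and between genotypes in APCs it was -0.63 (-1.18 to -0.09, adjusted p = 0.128), reaching -0.81 (adjusted p = 0.0382) without control APC replicate 1 and -0.94 (adjusted p = 0.0146) without both APC replicates 1. With the erythroid level as a covariate these last 2 comparisons changed sign, to 0.22 (adjusted p = 0.481) and 0.13 (adjusted p = 0.965).

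Epithelial genes, examined after these values were seen, were also highest in control APC replicates 4 and 5. Cdh1, a cell adhesion molecule of epithelia, was 4.04 and 3.67 there and 2.00 to 2.83 in the other 3 control APCs, and Krt5, a keratin, was 3.79 and 4.0 there and 2.02 to 2.65 in the others. The mesothelial gene Upk3b was 5.30 and 5.49 against 4.33 to 4.98. The 9 mesothelial genes together did not follow it, with sums of 277 and 263 CPM against 247 to 270. The erythroid sum was also highest there among control APCs, at 1503 and 1544 CPM against 805 to 1192. Replicate 5 also had the highest adipocyte (2212 CPM), mural (1239 CPM) and endothelial (1030 CPM) sums of that group. In APCs labelled transgenic, replicate 1 was highest for Igfbp2 (2.30), Cdh1 (3.08) and Krt5 (3.0). The FIP groups did not show this likeness throughout. Control FIP replicate 4 was highest for Igfbp2 (1.66) and Krt5 (1.87), but Cdh1 was 1.21 there and 2.15 in replicate 3. FIP replicate 5 of the transgenic label, at 1.82 for Igfbp2, was lowest for Cdh1 (0.08) and Krt5 (0.72). The part of other cells in the level of Igfbp2 was not tested beyond the erythroid covariate.

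No gene passed the test of the genotype by cell type interaction with limma (0 of 17435, with 13.7% at an unadjusted p under 0.05), and other settings passed between 0 and 957 genes. Among members the difference of differences was 0.83 for Igfbp2 (adjusted p = 0.332), 0.48 for Igfbp5 (adjusted p = 0.338) and 0.40 for Igf1 (adjusted p = 0.604). That of Igfbp5 passed without replicate 1 of the APCs labelled transgenic (0.67, adjusted p = 0.0242) and without both APC replicates 1 (0.72, adjusted p = 0.00946).

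To compare members with each other, CPM were divided by the length of annotated exons in kb. In control APCs the order of mean log2 CPM per kb was Igfbp7 (7.49), Igfbp6 (6.90), Igfbp4 (6.21), Igf2r (5.88), Igf1 (5.14), Igfbp5 (4.69), Igfbp3 (3.23), Igf1r (3.20) and Igfbp2 (1.55). The libraries of Igf2r and Igf1, of Igf1 and Igfbp5, and of Igfbp3 and Igf1r overlapped in that order, and other neighbours did not. In control FIPs Igfbp7 (7.42) and Igfbp6 (7.39) overlapped, as did Igfbp4 (6.32) and Igfbp5 (6.23), and Igf2r (5.71), Igf1 (4.71), Igfbp3 (4.37), Igf1r (2.96) and Igfbp2 (0.50) followed without overlap.

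Under the transgenic label the order in FIPs differed in the place of Igfbp3, which came after Igf2r (5.65) at 5.56 and before Igf1 (4.98), and its libraries overlapped those of Igf2r. In APCs labelled transgenic Igfbp5 stood at 3.93, below Igf1 (5.01) and above Igf1r (3.43) and Igfbp3 (3.11). Neighbouring ranks depend on which exons are counted: with the longest transcript in place of all exons, 7 of the 9 ranks were kept in each of 3 groups, and all ranks in control FIPs.

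Summed over the 6 binding proteins, the level per kb was higher in FIPs, at 517 ± 18 CPM per kb in controls and 520 ± 10 under the transgenic label, than in APCs, at 413 ± 4.8 and 413 ± 25 (SD, n = 5). Igfbp7, Igfbp6 and Igfbp4 made up most of the sum in every group. Igfbp5 took 14.6 ± 1.0% of it in control FIPs and 12.0 ± 1.4% in FIPs labelled transgenic, and 6.35 ± 1.2% and 3.86 ± 1.4% in the APC groups. Igfbp3 took 4.04 ± 0.57% in control FIPs and 9.28 ± 2.4% in FIPs labelled transgenic, with ranges of 3.13 to 4.48% and 7.43 to 13.1%, and 2.29% and 2.12% in the APC groups. These shares include the contrast that chose the family and carry no test.

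**Figure D4:**
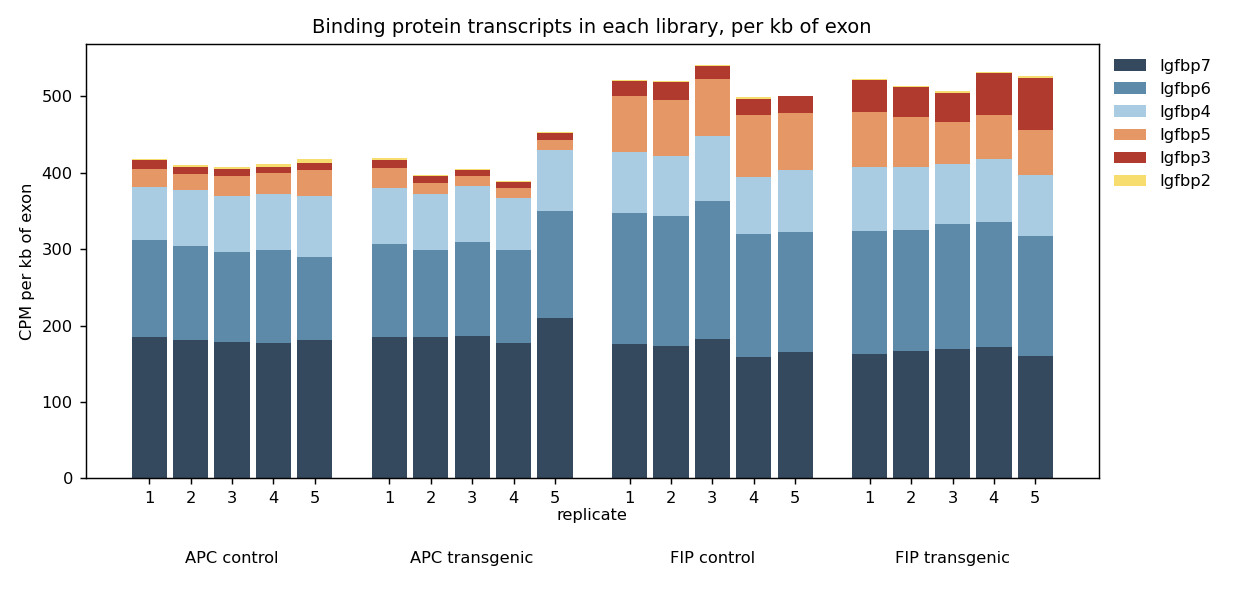
Transcripts of the 6 binding proteins in each library, stacked, in CPM per kb of exon (vertical axis from 0), by group and replicate. FIP libraries reach 498 to 541 and APC libraries 390 to 453. Igfbp3 is widest in the FIPs labelled transgenic.

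The genes whose levels over the 20 libraries correlated best with Igfbp3 were the kinesin gene Kif26b (Pearson r = 0.973), the collagenase gene Mmp8 (0.972), the angiopoietin gene Angpt4 (0.972), the iron exporter gene Slc40a1 (0.965) and the collagen gene Col11a1 (0.965). All 5 had their highest mean in FIPs labelled transgenic and the next in control FIPs, with Kif26b at 3.57 and 1.95 and Angpt4 at 4.91 and 3.67. Kif26b, Mmp8 and Col11a1 lay near 0 in APCs, where their level is bounded by the listing of low values as 0. For Igf1 the best were the calcium channel gene Cacna1g (0.952), the cation channel gene Trpc5 (0.902), the growth factor receptor gene Fgfr2 (0.899), Prickle1 (0.893) and Gldn (0.892). Of these, Trpc5 and Gldn lay near 0 in FIPs, bounded in the same way, and their Spearman correlations were 0.647 and 0.562. Libraries of a group share their cell type and label, so these values describe likeness and carry no test. By Spearman correlation, 1 of the 5 for Igfbp3 and 2 of the 5 for Igf1 were among the best 5.

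Of 84 other genes of the pathway, arranged in 8 lists, 80 could be tested. In controls 13 were higher and 31 lower in FIPs, beside the 19.6% and 27.9% of all genes given above, and under the transgenic label 11 were higher and 25 lower, beside 22.7% and 19%. The same shares of all genes are the background of the counts of each list that follows, and no list was tested. With libraries centred on their medians the counts were 17 and 23 in controls and 8 and 28 under the transgenic label.

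Of 7 regulators of binding proteins tested, 6 were lower and 1 higher in control FIPs, beside 27.9% and 19.6% of all genes, and 3 were lower and 1 higher under the transgenic label, beside 19% and 22.7%. Their median difference was -0.47 and -0.16, beside -0.06 and -0.01 over all genes, and the smallest passing difference in controls was that of the protease gene Htra1 (-0.09), named after its value was seen. Pappa, the pappalysin that cuts IGFBP4, fell from APCs to FIPs by 1.39 in controls (4.97 ± 0.41 in FIPs against 6.36 ± 0.57 in APCs, adjusted p = 3.1e-05), and the difference was -1.75 under the transgenic label. Its relative Pappa2, which cuts IGFBP3 and IGFBP5, was higher in FIPs by 1.27 (3.93 ± 0.61 against 2.66 ± 0.72, adjusted p = 0.00251) and by 2.04. Pappa2 in controls gave 0.30 with the erythroid level as a covariate (adjusted p = 0.697). Stc2, encoding a stanniocalcin that inhibits pappalysins, differed by -1.19 in controls and -1.08 under the transgenic label (adjusted p = 3.13e-06 and 9.07e-06).

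Among 4 insulin and related receptor genes, 3 passed as lower in control FIPs and 2 under the transgenic label, beside 27.9% and 19% of all genes, and none as higher. Insr, the insulin receptor, differed by -0.66 and -0.52 (adjusted p = 1.29e-09 and 4.11e-08), and Sort1, the sorting receptor sortilin, by -0.95 and -0.87. Insrr, an orphan relative of both receptors, differed by -0.72 in controls (adjusted p = 0.00515), a call lost with the erythroid covariate (-0.65, adjusted p = 0.171). Insrr was at 0.40 under the transgenic label (adjusted p = 0.113), the opposite direction. On the growth hormone axis, which drives Igf1 transcription in many tissues, 2 of 6 genes were lower and 2 higher in controls, and 3 lower and 1 higher under the transgenic label. Ghr, the growth hormone receptor, differed by -0.56 and -0.43, and the control difference was -0.13 with the erythroid covariate and did not pass (adjusted p = 0.286). Stat5a, a transcription factor downstream of it, differed by -0.40 and -0.37. Socs2, a feedback inhibitor of growth hormone signalling, was higher in FIPs by 1.37 and 1.23 (adjusted p = 3.46e-13 and 1.86e-12).

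Downstream of the receptor, 5 of 14 adaptors and inhibitors were lower in control FIPs and 2 higher, and 4 and 1 under the transgenic label. The docking proteins Irs1 and Irs2 differed by -0.67 and -0.32 in controls and by -0.42 and -0.35 under the transgenic label, and Grb10, an adaptor that dampens the receptor, was higher by 0.55 and 0.62. In the PI3K branch 9 of 26 were lower and 2 higher in controls, and 5 and 2 under the transgenic label. The regulatory subunit Pik3r1 differed by -0.65 and -0.44, and Phlpp1, a phosphatase of AKT, was higher by 0.40 and 0.38. In the MAP kinase branch 3 of 11 were higher and 2 lower in controls, and 3 and 3 under the transgenic label, with the kinase gene Map2k1 higher by 0.17 in controls and the kinase gene Braf at -0.27 under the transgenic label. With the erythroid covariate Map2k1 was at 0.10 and did not pass (adjusted p = 0.25).

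Genes of the mannose 6-phosphate route, whose tag IGF2R recognises, showed 2 of 7 higher and 1 lower in controls, and 2 and 2 under the transgenic label. The subunits of the phosphotransferase that makes the tag went opposite ways, with Gnptab at 0.26 and 0.30 and Gnptg at -0.26 and -0.26, and the sorting adaptor Gga2 was at 0.13 and 0.18. The control call of Gga2 was lost without both APC replicates 1 (0.10, adjusted p = 0.0532) and with the erythroid covariate (0.12, adjusted p = 0.226). Among the imprinted regulators and IGF2 mRNA-binding proteins, 1 of 5 was higher and 3 lower in each genotype. H19, the noncoding RNA beside Igf2, was higher in FIPs by 1.04 and 1.00 (adjusted p = 0.000479 and 0.000714). Airn, the antisense RNA that begins within Igf2r, was at -0.95 and -1.06 (adjusted p = 8.21e-06 and 1.85e-06), Plagl1, an imprinted transcription factor, at -0.45 in controls, and Igf2bp3 at -1.35 under the transgenic label. Plagl1 in controls was at -0.24 with the erythroid covariate and did not pass (adjusted p = 0.342).

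Between genotypes in APCs, 3 of the 80 pathway genes were higher and 4 lower, beside 2.1% and 5.91% of all genes, and with the erythroid level as a covariate none passed (19 had an unadjusted p under 0.05 without it). The balance turned with libraries centred on their medians, to 9 higher and 3 lower, and without both APC replicates 1 the counts were 6 and 7. Among those higher under the transgenic label were the transcription factor Foxo3 by 0.21 (adjusted p = 0.0311) and the kinase Gsk3a by 0.16 (0.0471). Lower were Igfals, which encodes the acid-labile subunit of the ternary complex (-0.88, adjusted p = 0.0488), Ghr (-0.28, 0.0479), the adaptor Sh2b2 (-0.50, 0.0375) and the PI3K catalytic subunit Pik3cb (-0.70, 0.0496), the last named after its value was seen. When only the APC libraries were fitted, none of the 7 passed. Igfals, Ghr and Gsk3a also lost their calls with an added 1, an added 0.1, no filter, or the replicate number as a block. Sh2b2 lost its call with no filter and with that block. Between genotypes in FIPs none of the 80 passed with limma (9 had an unadjusted p under 0.05), 2 with array weights and 2 with the replicate number as a block.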

How the data were processed

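Polyadenylated RNA of 20 sorted-cell libraries was sequenced. The deposited table holds log2 CPM per gene to 2 decimals, with a CPM of 1 or less listed as 0. Per the submitters' processing notes, Trim Galore 0.4.1, HISAT2 2.0.1, featureCounts 1.4.6 and DESeq2 1.6.3 were used with GRCm38. The annotation release and the strandedness of the counting were not given in the sources used here. Depth was estimated from the spacing of low values, of which 75.2 to 80.3% per library came out as whole reads (within 0.0051 log2 units), too few for a count test. Precision is therefore given by the spread between libraries, which pool mice and were fitted as independent.

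Genes above 0 in at least 5 libraries were fitted with limma 3.58.1 (R 4.3.3), with 1 mean per group, a variance trend, 16 residual degrees of freedom and two-sided tests at an adjusted p of 0.05. Members also got two-sided exact permutation tests of 5 against 5. Members and lists were chosen with earlier results of these data known. The pathway genes named are up to 3 passing genes per list and comparison with the smallest adjusted p, and the 5 best correlated with Igfbp3 and with Igf1, predicted genes left out. Gene positions came from GENCODE M21 (54276 genes matched), and promoters of all 10 members from RefSeq (GRCm38.p6). Alternatives were an added 1 or 0.1, no filter or a mean of at least 2, other scalings (median centring, a trimmed mean shift, quantiles), array weights, robust variance, fits of the compared groups alone, replicate blocks, each library left out and, chosen after seeing the data, both APC replicates 1 left out and an erythroid covariate. The fit was tested on simulated data. Some genes of the pathway lists are counted but not reported here by name.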

Additional observations from a re-analysis of the deposited data

Results flagged for a closer look

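Among 36 sets of 5 libraries, 1 for each detected member and group, 2 held a library far from the other 4, where chance gives about 1 in 20. Igfbp5 in replicate 1 of the APCs labelled transgenic was 7.30 log2 CPM, and its gap to the next library was 0.92 of the range of the group. Igfbp5 in replicate 4 of the control FIPs was 8.93, with a gap of 0.75 of a range that was itself small (8.77 to 8.93).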

How the results depend on the processing

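Other settings moved several counts of passing genes by over 1.5 times. For APC genotypes the count of 1396 was 823 and 812 (an added 0.1, no filter), 2199 (centring), 2253 (array weights), 0 (only APC libraries, with limma), 3534 (both APC replicates 1 left out) and 5 (erythroid covariate), and 181 to 2849 with 1 library left out. For FIP genotypes the count of 65 was 271 (array weights), 36 (only FIP libraries), 126 (both APC replicates 1 left out) and 104 (erythroid covariate), and 9 to 125 with 1 library left out. For the interaction the count of 0 was 3 (an added 1), 1 (quantiles), 176 (array weights), 957 (both APC replicates 1 left out) and 2 (erythroid covariate), and 0 to 331 with 1 library left out. For FIPs against APCs in controls, 8288 became 4169 with the erythroid covariate. Centring moved the median of all genes by up to 0.11 and the share of higher genes among those passing from 41.3 to 52.8% (control FIPs against APCs), 54.5 to 43.8% (the same under the transgenic label), 26.2 to 62.6% (APC genotypes) and 64.6 to 51.9% (FIP genotypes). The cause of these movements was not tested.

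The labels do not say whether FIP and APC libraries of a number share mice. Deviations of same-numbered FIP and APC libraries correlated at 0.04 to 0.27 in controls, against -0.22 to 0.08 for other numbers, and at 0.06 to 0.33 under the transgenic label, against -0.32 to 0.23. The r exceeded 0.1 in 2 and 3 of 5 pairs. The own number was best for 3 of 5 control and 4 of 5 transgenic-label APC libraries. It was best for 3 of 5 control and 2 of 5 transgenic-label FIP libraries. This hint of pairing fell short of the rule that every pair exceed 0.1, so the fits without a block were kept. With the number as a block, 1057 genes passed between APC genotypes and 101 between FIP genotypes, Igfbp5 in APCs stayed at -0.76 (adjusted p = 0.0155) and Igf1r in APCs passed (adjusted p = 0.0412). With pools of a number as a block, 25 genes (as a factor) or 36 (as a random effect) passed the interaction, and Igf1 in control FIPs against APCs passed with the factor (adjusted p = 0.0436).

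Igfbp5 between APC genotypes lost its call when only APC libraries were fitted (-0.76, adjusted p = 0.137) and with the erythroid covariate (-0.23, adjusted p = 0.773). Some differences changed sign. For Igf1 between the populations under the transgenic label they were 0.06 (array weights) and 0.15 (both APC replicates 1 left out), and -0.15 to 0.15 with 1 library left out. For Igfbp2 the erythroid covariate gave 0.22 there and 0.13 between APC genotypes, where the difference without it was -0.63. Between APC genotypes Igf2r was -0.03 (quantiles and erythroid covariate), Igfbp6 -0.03 (erythroid covariate), Igfbp4 0.09, 0.03 and 0 (centring, trimmed mean, erythroid covariate) and -0.04 to 0.02 with 1 library left out, and Igf1 -0.31 to 0.13 with 1 library left out. For Igfbp4 the interaction was -0.09 and -0.04 (centring, trimmed mean), and -0.01 to 0.05 with 1 library left out. Further member calls lost in the population comparisons were Igf2r in controls with the trimmed mean shift (adjusted p = 0.105), Igfbp4 in controls with quantiles (0.108), only the groups compared (0.0544), both APC replicates 1 left out (0.0879) and the erythroid covariate (0.214), and Igfbp4 under the transgenic label with centring (0.266) and the trimmed mean (0.0738). Igfbp7 in controls passed with quantiles (-0.11, adjusted p = 0.0184). Depth limits Igfbp2, at 16 to 72 reads.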
